A study of Mus musculus with 2 samples.

Results

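The nuclear genes of the mitochondrial respiratory chain and ATP synthase were followed across the tissues of a mouse fracture callus, the repair tissue that forms around a broken bone. Members were all gene rows of the spatial count tables whose symbols start with Ndufa, Ndufb, Ndufc, Ndufs or Ndufv (complex I), Sdha to Sdhd (complex II), Uqcr (complex III), Cox4 to Cox8 (complex IV) or Atp5 (complex V), pseudogene symbols left out. There were 85 of 19430 named genes, 42 in complex I, 8 in complex II, 7 in complex III, 15 in complex IV and 13 in complex V. The prefixes also took in 10 assembly factors (Ndufaf and Sdhaf genes), which build the complexes without being part of them. The samples were 2 Visium sections, in which RNA of formalin-fixed tissue is read by probe pairs on an array of barcoded spots. Each section held a control callus (Nf1[+/flox], without Cre) and an Nf1Postn callus (Postn-cre;Nf1[flox/-]) side by side. Nf1 encodes neurofibromin, an inhibitor of RAS. The Postn promoter drives Cre in the periosteum and its progeny, and the mutant also carried 1 Nf1 allele that is null in all cells, muscle included. The mice were female littermates, about 8 weeks old at surgery, and calluses were taken 10 days after a fracture of the distal tibia held by an intramedullary pin. Both calluses were decalcified in 14% EDTA for about 3 days. There was 1 mouse per genotype and the sections came from 1 block, although the labels call them biological replicates, so no test between conditions was possible: values are given for each section and callus, and all intervals are 95% exact intervals of the counts that cover counting error only.

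The respiratory chain passes electrons from NADH (through complex I) and succinate (through complex II) over complexes III and IV to oxygen, and complex V uses the proton gradient so made to form ATP. Most subunits are encoded in the nucleus, and a few core subunits in mitochondrial DNA. Skeletal muscle is rich in mitochondria, whereas growth cartilage has few blood vessels and relies largely on glycolysis. Several complex IV subunits have tissue forms: Cox6a2, Cox7a1 and Cox8b are the forms of contractile tissue, and Cox6a1, Cox7a2 and Cox8a are found in most other cells.

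Promoters were available for 69 of the 85 members (RefSeq, GRCm38.p6, 250 bases before to 50 after the start). They were searched on both strands for an exact 10-base palindrome, the core of sites of the factor NRF1 whose letters stand in capitals below, and TCAAGGTCA, the core of sites of the estrogen-related receptors (ERR), both known regulators of respiratory genes. The first was held by 5 members (7.25%: Atp5k, Cox6a1, Ndufa11, Ndufaf5 and Uqcrc1) and by 1.07% of all 27025 genes with a promoter, and the second by 2 members (2.90%: Atp5g3 and Sdhd) and by 0.466% of all genes. These are matches of letters and not measured sites. The 27025 genes were not limited to those of the count tables, nor matched to the members in expression or base content. Shown here are Cox8b and Cox8a, a muscle form and its partner whose levels ran in opposite directions across the callus, and Cox6a1, Uqcrc1 and Atp5k, which held the first motif but of which Cox6a1 was lower in muscle and the other two were higher. Capitals mark the motif, and Cox8b and Cox8a held neither motif in these 300 bases.
Cox8b, chr7:140900397-140900696, minus strand: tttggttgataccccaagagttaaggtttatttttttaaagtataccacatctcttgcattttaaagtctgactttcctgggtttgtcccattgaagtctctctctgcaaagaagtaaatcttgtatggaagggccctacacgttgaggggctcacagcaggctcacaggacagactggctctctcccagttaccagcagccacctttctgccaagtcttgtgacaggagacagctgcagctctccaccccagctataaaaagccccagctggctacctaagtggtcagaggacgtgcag
Cox8a, chr19:7217567-7217866, minus strand: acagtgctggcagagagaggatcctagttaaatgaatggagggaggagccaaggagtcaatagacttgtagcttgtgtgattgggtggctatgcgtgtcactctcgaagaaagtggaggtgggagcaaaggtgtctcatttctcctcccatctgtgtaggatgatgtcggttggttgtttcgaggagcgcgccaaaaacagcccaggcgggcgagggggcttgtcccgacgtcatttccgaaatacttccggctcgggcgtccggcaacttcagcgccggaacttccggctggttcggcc
Cox6a1, chr5:115348909-115349208, minus strand: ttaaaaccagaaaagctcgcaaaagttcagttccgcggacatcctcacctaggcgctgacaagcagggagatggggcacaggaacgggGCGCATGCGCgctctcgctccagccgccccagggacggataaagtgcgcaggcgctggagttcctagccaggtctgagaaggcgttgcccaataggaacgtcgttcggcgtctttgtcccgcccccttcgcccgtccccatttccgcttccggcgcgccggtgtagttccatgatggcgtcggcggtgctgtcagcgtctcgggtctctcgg
Uqcrc1, chr9:108936398-108936697, plus strand: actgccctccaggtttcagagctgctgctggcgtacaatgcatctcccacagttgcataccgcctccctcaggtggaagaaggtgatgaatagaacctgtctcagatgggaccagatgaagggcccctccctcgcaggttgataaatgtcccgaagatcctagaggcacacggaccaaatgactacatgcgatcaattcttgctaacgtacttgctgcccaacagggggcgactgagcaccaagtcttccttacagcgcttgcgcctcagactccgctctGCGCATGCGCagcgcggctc
Atp5k, chr5:108434350-108434649, minus strand: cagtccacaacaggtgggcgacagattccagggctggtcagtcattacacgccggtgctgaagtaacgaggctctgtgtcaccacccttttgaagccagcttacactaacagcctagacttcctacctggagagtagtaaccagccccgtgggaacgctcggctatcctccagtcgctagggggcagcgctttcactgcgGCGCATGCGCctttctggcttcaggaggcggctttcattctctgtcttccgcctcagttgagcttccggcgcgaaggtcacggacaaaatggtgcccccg

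Depth differed between the calluses. The control callus had 1700 and 1778 spots in sections 1 and 2 with medians of 7053 and 5718 unique molecular identifiers (UMIs, counted RNA molecules) per spot, and the Nf1Postn callus 1341 and 1556 spots with medians of 2030 and 3239.8. Spots were therefore pooled, and a level is the UMIs of a gene or complex per 1000000 UMIs of the same spots (CPM). Because probe pairs differ between genes, a gene was compared only with itself between places. Spots were grouped into 13 regions by clustering on genes that left out the members, all other mitochondrial lists and all cell type markers, so the members' levels had no part in drawing them. A spot can hold several cell types, and regions are named by their leading genes. Regions led by Myh7 and Ckmt2 (760 spots) and by 2310002L09Rik, Ucp3 and Perm1 (198 spots; the Ucp3 region below) gave 28.6% and 30.8% of their UMIs to 16 skeletal muscle markers (Acta1, Ckm, Myh4 and others), and are called the muscle regions. In 7 regions, called low-muscle, the share was 0.620% to 4.17%, and in the other 4 it was 6.57% to 14.6%. In bulk spots, fewer cells of a type and less RNA per cell cannot be told apart.

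**Figure D1:**
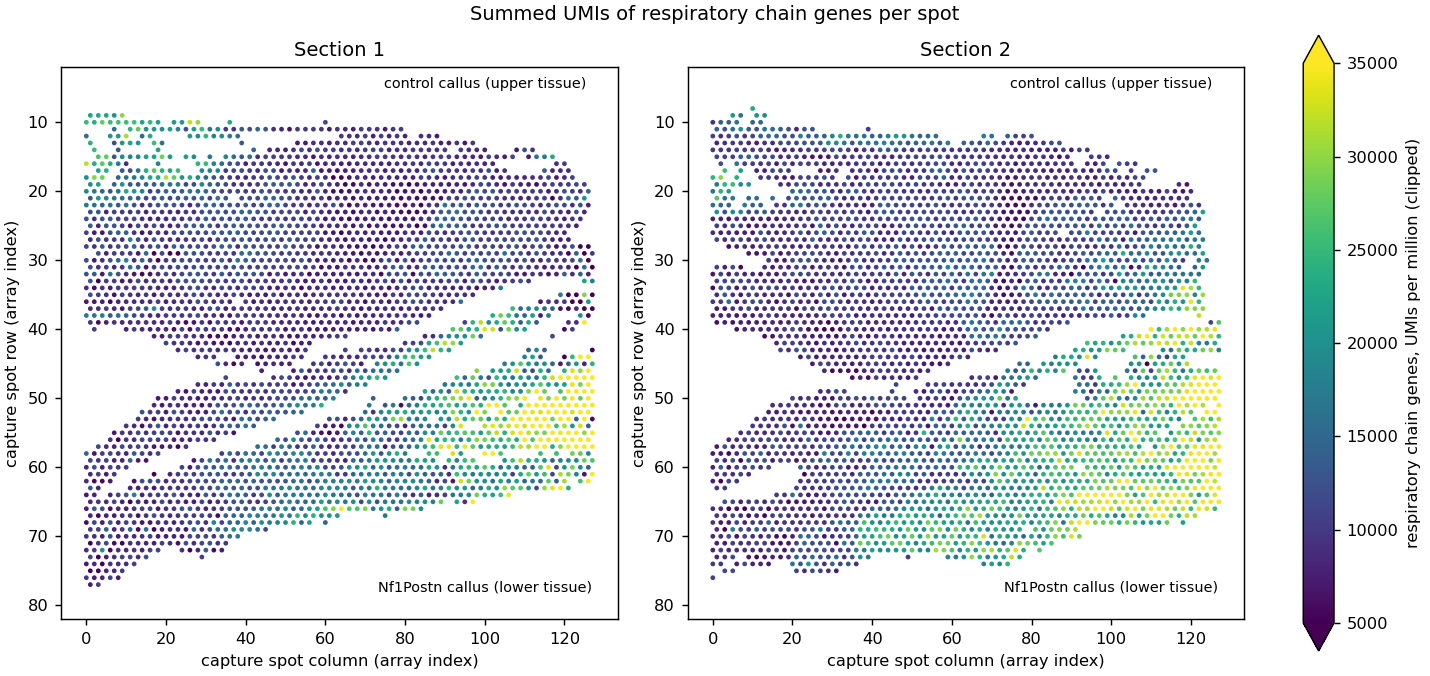
Summed UMIs of the 85 respiratory chain genes in each spot (colour, CPM, clipped at both ends of the scale), on the array row and column of the 2 sections. The control callus (upper tissue) is mostly at the low end of the scale, and the brightest spots lie at the right end of the Nf1Postn tissue, in the muscle regions.

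The 85 genes together gave 1.23% of all UMIs. Their summed level was highest in the muscle regions, intermediate in the regions that held some muscle RNA, and within a narrow band elsewhere. In the muscle regions it was 22775 and 22664 CPM in the control callus of sections 1 and 2 and 28012 and 27815 CPM in the Nf1Postn callus. In all other spots it was 9781, 10337, 12822 and 13150 CPM in the same order, so that the lowest muscle value lay above the highest value elsewhere. The pooled ratio was 2.54-fold (2.52 to 2.56), above each of the 4 ratios within a section and callus (2.33, 2.19, 2.18 and 2.12), as the calluses differed both in level and in their share of muscle spots. The pooled ratio likewise lay above all 4 for 30 of 80 members. The pooled ratio was 2.79-fold (2.77 to 2.81) against the low-muscle regions alone, where 31 of 79 members were at least 2-fold higher in every callus and section and 1 lower (4.71% and 15.6% of all genes compared). Among single spots of at least 1000 UMIs, the middle 90% lay between 17197 and 38626 CPM in the muscle regions (952 spots) and between 6615 and 13985 CPM in the low-muscle regions (3643 spots), ranges that did not meet. A large part of the muscle UMIs is contractile protein RNA, and the median of all 11851 genes compared was 0.628-fold. With trimmed mean (TMM) scaling, which moves that median, the summed ratio was 3.87-fold.

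**Figure D2:**
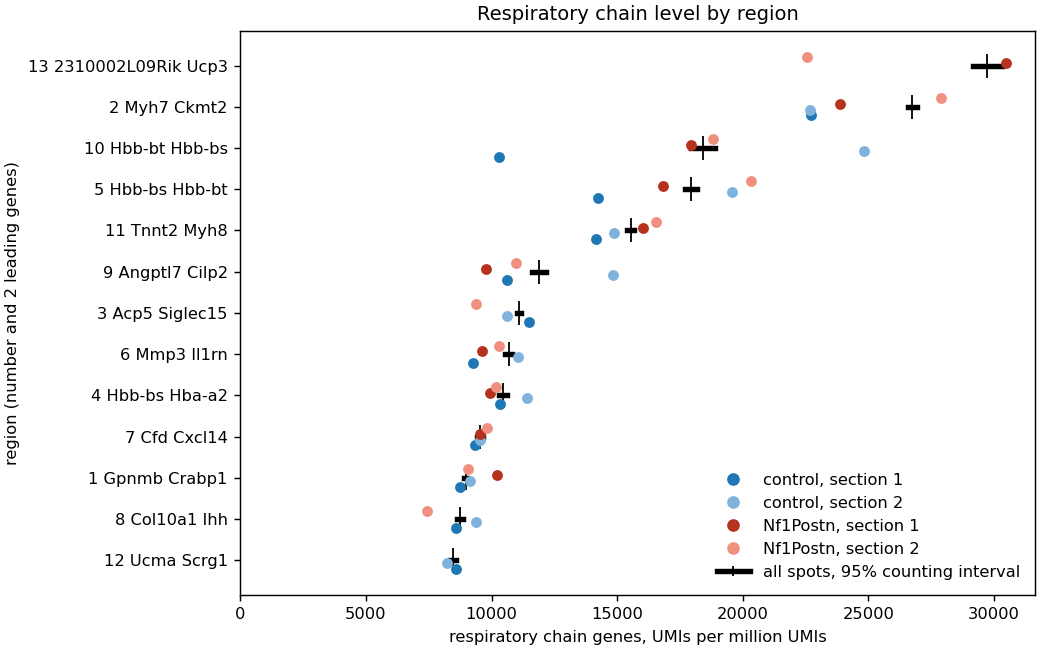
Respiratory chain level (CPM) of the 13 regions, named by number and 2 leading genes. Points are the callus of each section where it had at least 10 spots, and the black mark with its bar is the level over all spots with its 95% counting interval. The lowest point of the muscle regions (2 and 13) is 22545, which only the section 2 control point of region 10 passes among the others, and the points of the 7 low-muscle regions run from 7416 to 11501.

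Outside the muscle regions, the regions with more muscle RNA stood higher. The regions led by Hbb-bt and Camp, by Hbb-bs and Kcna7, and by Tnnt2 and Myh8 stood at 18423, 17958 and 15547 CPM, with muscle marker shares of 13.6%, 13.9% and 14.6%. The first of them was the shallowest of all regions, and its control spots gave 10298 CPM in section 1 (21 spots) and 24822 CPM in section 2 (14 spots). The region led by the tendon and joint genes Angptl7 and Cilp2 stood at 11889.6 CPM. Among the low-muscle regions, with the calluses pooled, the bone region rich in osteoclast genes (Acp5, Siglec15, Mmp9) stood at 11108 CPM, and 674 of its 701 spots were control. It was the first of them in the control callus of section 1 alone. In the control callus of section 2 it stood at 10599.8 CPM, below the Hbb-bs and Bglap region (11413 CPM) and the Mmp3 region (11051 CPM). In the Nf1Postn callus it stood at 10134 and 9398 CPM (9 and 18 spots). The pooled level was 10679 CPM in the region led by Mmp3, 10459.9 CPM in that led by Hbb-bs and Bglap, 9530.2 CPM in that led by Cfd and 8976 CPM in that led by Gpnmb. The cartilage regions were lowest with the calluses pooled, at 8739 CPM where Col10a1 and Ihh led (hypertrophic cartilage genes) and 8467 CPM where Ucma led (genes of less mature cartilage). The section and callus values of neighbours in the low-muscle order overlapped, except that every value of the Hbb-bs and Bglap region lay above every value of the Cfd region, its neighbour. The ends of the order stood apart in the control callus, which gave 11501 and 10599.8 CPM in the Acp5 region and 8579 and 8223 CPM in the Ucma region.

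All complexes shared the muscle pattern. Against all other spots, complex I was 2.43-fold higher in muscle (2.41 to 2.46), complex II 2.46-fold (2.39 to 2.54), complex III 2.61-fold (2.55 to 2.68) and complex V 2.46-fold (2.43 to 2.49). Each of these pooled ratios lay above its 4 ratios within a section and callus. Those ran from 2.04 to 2.19 in complex I, 2.08 to 2.15 in II, 1.99 to 2.28 in III and 2.03 to 2.22 in V. Complex IV, which holds the muscle forms, was 2.91-fold higher (2.86 to 2.96), and 2.33-fold to 2.95-fold within a section and callus. Without Cox6a2, Cox7a1 and Cox8b the ratio of all members was 2.29-fold, and 1.91-fold to 2.04-fold within a section and callus. Of the 85 members, 80 had at least 50 UMIs in each section, and Cox7b2, Cox8c, Ndufb2, Ndufb3 and Ndufb11b did not. A gene was called when it differed at least 2-fold the same way in all 4 combinations of section and callus, and 20 members were called higher in muscle and 1 lower (Cox6a1). Among all genes compared, 3.43% were called higher and 13.8% lower. The pooled ratio was above 1 for 72 of the 80 members, with a median of 2.35-fold. The section 2 control callus had only 18 muscle spots and 35 members were called higher without section 2, against 25 without section 1. The share of all genes called was not computed with a section left out.

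Of the 3 most counted members of each complex, all were higher in muscle but Cox6a1, described below. Ndufb7, an accessory subunit of the membrane arm of complex I, measured 656 and 453 CPM in the control callus of sections 1 and 2 and 942 and 866 CPM in the Nf1Postn callus in the muscle regions. In all other spots it measured 306, 324, 432 and 434 CPM in the same order, and the groups did not overlap (2.48-fold, 95% interval 2.38 to 2.58). This pooled ratio lay above the ratio within each section and callus. The neighbours of Ndufb7 in the same arm, Ndufb10 and Ndufb6, were 2.72-fold and 2.52-fold higher. In complex II, the iron-sulfur subunit Sdhb was 3.07-fold higher, the flavoprotein Sdha 3.03-fold and the membrane anchor Sdhc 2.34-fold. In complex III the core subunit Uqcrc1 was 2.71-fold higher, and the small subunits Uqcr10 and Uqcr11 2.62-fold and 2.16-fold. Cox5b of complex IV was 2.51-fold higher.

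The ATP synthase subunits were higher in muscle as well. Atp5a1, the alpha subunit of its catalytic head, measured 1202 and 1114 CPM in the control callus of sections 1 and 2 and 1783 and 1679.6 CPM in the Nf1Postn callus in the muscle regions, against 494, 521, 728 and 694 CPM elsewhere (2.95-fold, 95% interval 2.86 to 3.04). This pooled ratio, too, lay above the ratio within each section and callus. The beta subunit Atp5b was 3.52-fold higher, and the small subunits Atp5e and Atp5d were 2.35-fold and 1.95-fold higher. Beside the muscle forms, the members with the highest ratios were Ndufb9 (4.12-fold, 95% interval 3.79 to 4.49) and Cox6c (4.12-fold, 95% interval 3.71 to 4.57), and both were called. Cox7a2l, which helps join complexes III and IV, had a ratio whose interval included 1 (1.02-fold, 95% interval 0.925 to 1.13). Over the 13 regions, 66 of the 80 members compared (82.5%) had their highest level in a muscle region, as had 13.2% of all genes compared. A cartilage region gave the lowest level of 54 members (67.5%) and of 27.1% of all genes compared.

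**Figure D3:**
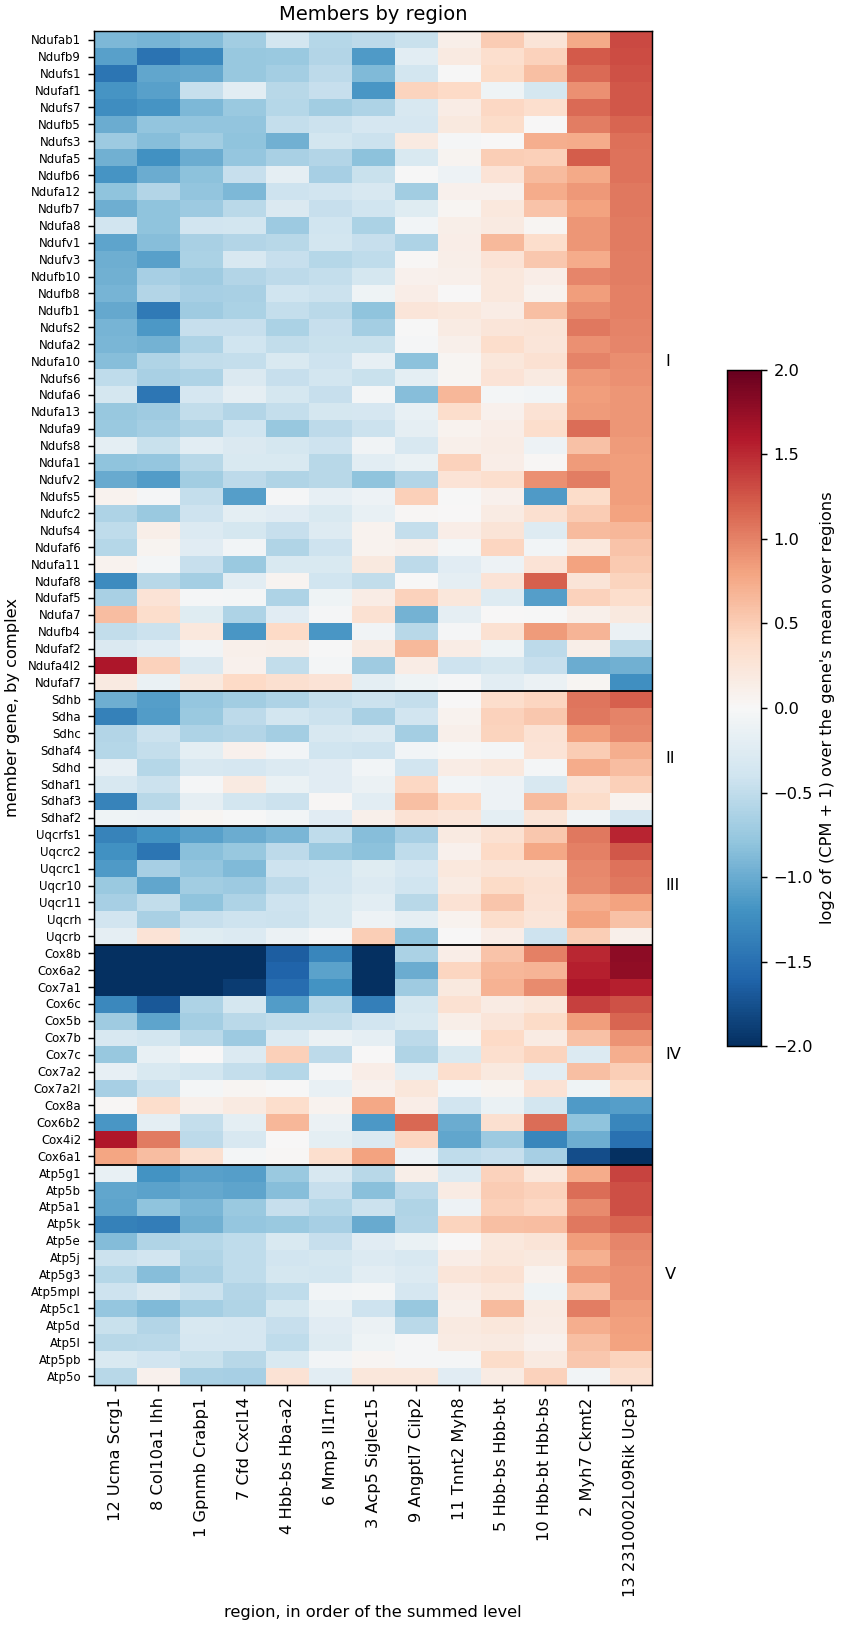
Level of the 80 members with at least 50 UMIs in each section (rows, by complex) in the 13 regions (columns, ordered by the summed level), as log2 of CPM + 1 over the gene's mean over regions. Most rows turn from blue (low) on the left to red (high) in the muscle regions on the right; Cox6a1, Cox8a, Cox4i2 and Ndufa4l2 run the other way.

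The assembly factors followed this pattern weakly. Together they were 1.41-fold higher in muscle (1.33 to 1.49), against 2.57-fold for the structural subunits, and 0 of 10 were called against 20 of 70 subunits. In each callus of each section the assembly ratio (1.33, 1.41, 1.25 and 1.20) was below the structural one (2.36, 2.21, 2.21 and 2.14). The complex I factors Ndufaf8 and Ndufaf2 stood at 1.65-fold and 1.04-fold, and the complex II factors Sdhaf1 and Sdhaf4 at 1.33-fold and 1.71-fold. Of 19 assembly factors outside the prefixes, 1 was called higher (Ecsit, 2.68-fold), where 3.43% of all genes compared were. The median of the 19 was 1.17-fold. The 3 with most UMIs, Ttc19, Cox16 and Cox19, stood at 0.960-fold, 1.23-fold and 1.80-fold.

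Tissue forms of complex IV subunits gave the sharpest contrasts. Cox6a2 (chr7:127804607-127805560, mm39 as in the tables) measured 2037 and 2759 CPM in the control callus of sections 1 and 2 and 2279 and 2234 CPM in the Nf1Postn callus in the muscle regions and 102, 278, 581 and 633 CPM elsewhere. Its partner Cox6a1 (chr5:115483701-115487041) was low in muscle, with 96.4, 117, 70.0 and 84.1 CPM, and high elsewhere, with 467, 379, 275 and 220.1 CPM. Every muscle value of Cox6a2 lay above its values elsewhere (8.15-fold, 95% interval 7.90 to 8.40) and every muscle value of Cox6a1 below (0.218-fold, 95% interval 0.193 to 0.244). The Cox6a2 ratio was above its pooled value in the control callus of both sections and below it in the Nf1Postn callus of both. Outside the muscle regions Cox6a2 was higher in the Nf1Postn callus, which also held more spots with some muscle RNA. The Hbb-bs and Kcna7 region, with 13.9% muscle markers, had 347 and 162 Nf1Postn spots and 26 and 25 control spots in sections 1 and 2. The part of this muscle RNA was not tested. Cox8b (chr7:140478858-140480360) measured 791 and 712 CPM in the control callus of sections 1 and 2 and 1000.5 and 922 CPM in the Nf1Postn callus in the muscle regions, against 45.5, 101, 209.6 and 244 CPM elsewhere (8.75-fold, 95% interval 8.33 to 9.19). Its partner Cox8a (chr19:7192518-7194982) measured 116, 181, 134 and 105 CPM in muscle and 327, 287, 258 and 220.1 CPM elsewhere (0.383-fold, 95% interval 0.345 to 0.424), again without overlap. Cox7a1 (chr7:29883569-29885504) measured 441, 324, 500.2 and 582 CPM in muscle and 26.2, 60.8, 132 and 164 CPM elsewhere (8.44-fold, 95% interval 7.93 to 8.99), also without overlap. Its partner Cox7a2 (chr9:79662643-79667161) was not lower but 1.64-fold higher (1.46 to 1.84), and lay above the other spots in 3 of the 4 combinations. Cox4i2, Ndufa4l2 and Cox6b2, variants of Cox4, Ndufa4 and Cox6b, stood at 0.457-fold, 0.479-fold and 0.686-fold. Cox6b2 (213 UMIs in all) turned to 1.05-fold with TMM scaling, while Cox6a1, Cox8a, Cox4i2 and Ndufa4l2 remained below 1.

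As shares of a pair's UMIs, compared only between regions, Cox6a2 made up 96.3% of its pair in muscle and 41.3% in all other spots. Cox8b made up 89.0% and 26.2%, and Cox7a1 84.7% and 51.9%. In the muscle regions the Cox6a2 share was 95.5% and 95.9% in the control callus and 97.0% and 96.4% in the Nf1Postn callus, values with overlapping intervals. Over regions it was lowest in the Ucma region (8.93%), at 6.11% and 14.6% in the control callus of sections 1 and 2. Of the other pairs listed, Cox7b2 had 52 UMIs in all against 3505 of Cox7b, and the partners Cox4i1, Ndufa4 and Cox6b1 are not analysed here.

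**Figure D4:**
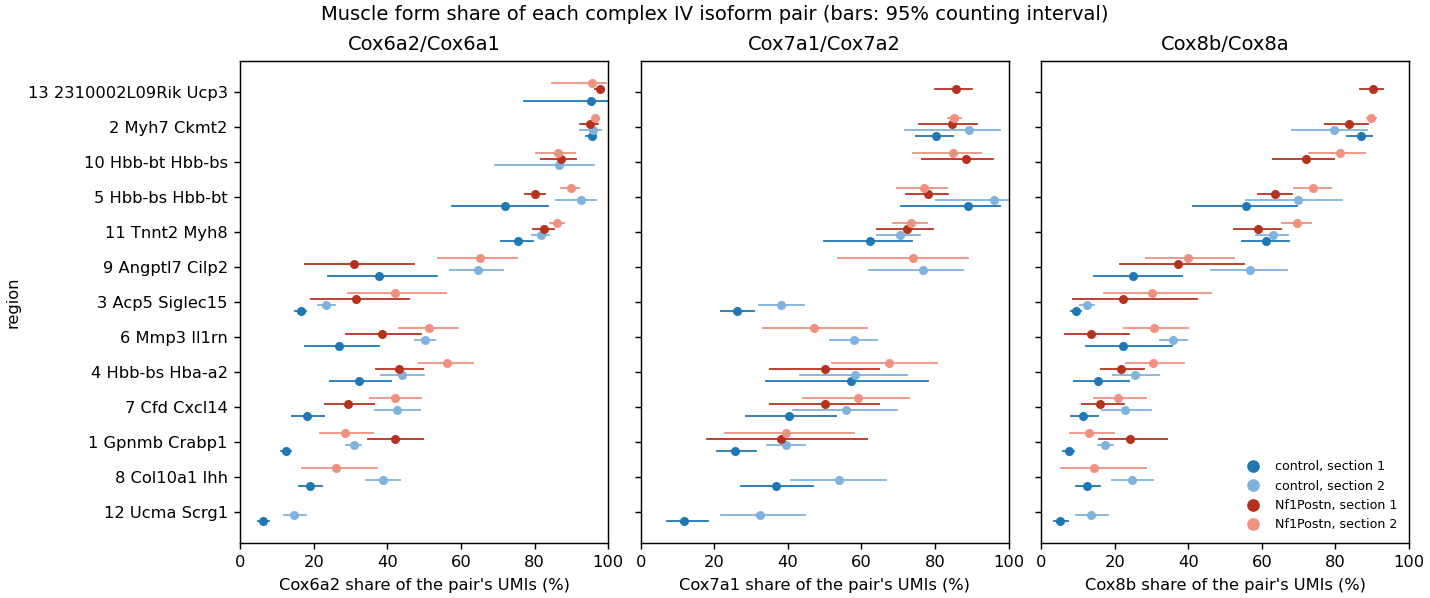
Share of the muscle form among the UMIs of each of 3 complex IV pairs (x axis, percent) in the 13 regions, for the callus of each section with at least 20 UMIs of the pair. Bars are 95% counting intervals. For Cox6a2 every point of the muscle regions (2 and 13) lies to the right of all others, for Cox7a1 points of regions 5 and 10 overlap them and for Cox8b a point of region 10 does, and the lowest point of each pair is the section 1 control callus of the Ucma region (12).

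The muscle forms varied far less in their ratio to muscle actin than in their level. Per 1000 UMIs of Acta1, the skeletal muscle actin, Cox6a2 gave 94.2 and 103 UMIs in the muscle regions, 92.1 in the Acp5 region and 94.2 in the Ucma region. Over all 13 regions it ranged from 66.9 to 115, while its own level ranged from 50.7 to 2556 CPM. Cox8b ranged from 22.8 to 60.7 and Cox7a1 from 13.7 to 33.4 per 1000 Acta1 UMIs. By contrast Cox6a1 ranged from 2.55 to 960.2, and Ndufb7, shared by all cells, from 32.1 to 443. The lowest ratio of each of the 3 muscle forms to Acta1 was in the region of regenerating muscle led by Tnnt2 and Myh8. Acta1 thus moved with the muscle forms in bone and cartilage too, and its part in those levels was not tested.

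In regenerating muscle the respiratory genes stood between mature muscle and the low-muscle tissues. The region led by Tnnt2, Myh8 and Myh3 (cardiac troponin and the perinatal and embryonic myosins of new fibres) measured 14144 and 14882 CPM in the control callus and 16026 and 16561 CPM in the Nf1Postn callus, each below every value of the muscle regions. The summed ratio to the muscle regions was 0.575-fold, and it was 1.60-fold against the low-muscle regions. At a fold of 1.5 in all 4 combinations, 14 of 72 members were lower than in mature muscle and 1 was higher, where 3.84% of all genes compared were lower and 16.2% higher. The median was 0.599-fold over members and 1.33-fold over all genes. The member that was higher was Cox6a1, the form of other tissues, at 232, 218, 243 and 173 CPM (control sections 1 and 2, then Nf1Postn) against 96.4, 117, 70.0 and 84.1 CPM in mature muscle. The groups did not overlap (2.47-fold, 95% interval 2.15 to 2.85). This level was not particular to regenerating muscle. Over all spots Cox6a1 stood at 209 CPM here, 216 CPM in the Hbb-bs and Kcna7 region and 188 CPM in the Hbb-bt region. The latter regions had muscle marker shares of 13.9% and 13.6%. Among those lower were the muscle forms Cox8b (0.375-fold, 95% interval 0.349 to 0.403), Cox7a1 (0.376-fold, 95% interval 0.342 to 0.413) and Cox6a2 (0.450-fold, 95% interval 0.431 to 0.470), the ATP synthase subunits Atp5g1, Atp5a1 and Atp5b at 0.461-fold, 0.467-fold and 0.507-fold, and Ndufb9 of complex I at 0.481-fold. The muscle marker share was 14.6% here and 28.8% in the muscle regions, and its part in these ratios was not tested. Against the low-muscle regions 20 of 79 members were higher by the same rule and 0 lower, where 4.4% of all genes were higher and 4.86% lower. Cox6a2, Cox8b and Cox7a1 led at 7.08-fold, 6.28-fold and 5.81-fold, followed by Atp5k, a membrane subunit of ATP synthase, at 2.69-fold. Cox6a2 made up 82.8% of its pair, Cox7a1 71.4% and Cox8b 64.4%.

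Within the muscle regions of the Nf1Postn callus, the level also changed along the section. At array columns 80 to 95 it was 24141 CPM in section 1 (40 spots) and 25804 CPM in section 2 (136 spots), and at columns 112 to 127, the end of the capture area, 37147 CPM (36111 to 38206, 68 spots) and 32542 CPM (32157 to 32929, 167 spots). The muscle marker share moved from 25.4% to 32.1% and from 27.8% to 30.7% between the same columns, a smaller change in proportion. Acta1 alone went from 18545 to 29072 CPM and from 20810 to 25675 CPM, nearer in proportion to the level between these columns. In section 2 it did not follow the level throughout. At columns 48 to 63 Acta1 stood at 23210 CPM and the level at 24124 CPM, and at columns 96 to 111 at 20690 and 28097 CPM. The part of muscle RNA in the change was not tested. Cox6a2 went from 1436 to 4099 CPM in section 1 and from 1759 to 3074 CPM in section 2. Complex IV went from 4358 to 8258 CPM and from 4544 to 6731 CPM. These columns were compared after the map had been seen, and the labels do not say which end of the tibia they lie at.

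Ndufa4l2 and Cox4i2 were highest in cartilage. Ndufa4l2 (chr10:127350836-127353024) and Cox4i2 (chr2:152596093-152606958) encode variants of the subunits Ndufa4 and Cox4 and are known to be induced when oxygen is low. Ndufa4l2 counts here under complex I by its name, although Ndufa4 itself is found in complex IV. In the Ucma region of the control callus Ndufa4l2 measured 367 and 304 CPM in sections 1 and 2, against 96.2 and 98.1 CPM in the other low-muscle regions (3.58-fold, 95% interval 3.31 to 3.86). Cox4i2 measured 107 and 100.1 CPM against 32.6 and 27.9 CPM (3.46-fold, 95% interval 3.01 to 3.97). Both were high in the Ucma region in both sections, and the Col10a1 region came next of the 13, with 157 CPM of Ndufa4l2 and 71.1 CPM of Cox4i2 over all its spots. In the muscle regions the 2 genes stood at 56.7 and 16.3 CPM. Almost no Nf1Postn spot fell in the Ucma region (1 of 217), so its ratios compare spots within the control callus alone. No such ratio can be given for the Nf1Postn callus.

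In the Ucma region the median member was lower than in the other low-muscle regions, but by less than the median of all genes. The summed ratio to the other low-muscle regions was 0.858-fold in the control callus, but 1.08-fold with TMM scaling, which turned its direction. At a fold of 1.5 in both sections 7 of 79 members were lower and 2 higher, where 27.5% of all genes compared were lower and 4.32% higher. The members that were higher were Ndufa4l2 and Cox4i2. Those lower were the muscle forms Cox6a2, Cox7a1 and Cox8b at 0.347-fold, 0.367-fold and 0.377-fold, in the region with the lowest muscle marker share (0.620%), and Sdha (0.632-fold), Cox7a2l (0.636-fold) and the assembly factors Ndufaf8 (0.621-fold) and Sdhaf3 (0.400-fold). The median was 0.818-fold over members and 0.763-fold over all genes. Cox6a1, at 517 CPM, was nearly as high there as in the Acp5 region (522 CPM), where it was highest.

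The bone region rich in osteoclast genes stood above the pooled spots of the other low-muscle regions in the control callus. Osteoclasts are multinucleate cells that resorb bone and are known for their many mitochondria. In the control callus, its summed ratio to the other low-muscle regions was 1.22-fold, and 1.28-fold with TMM scaling. The pooled ratio was above 1 for 65 of 79 members with a median of 1.19-fold, where the median of all genes was 0.939-fold. At a fold of 1.5 in both sections 2 members were higher and 1 was lower, where 3.41% of all genes were higher and 8.83% lower. Cox8a measured 439 and 410.3 CPM against 282 and 265 CPM (1.57-fold, 95% interval 1.49 to 1.64). Atp5o, a stalk subunit of ATP synthase, measured 123 and 125 CPM against 78.7 and 77.6 CPM (1.58-fold, 95% interval 1.45 to 1.73). Not past the fold in both sections, the complex III subunits Uqcrb and Uqcrc1 stood at 1.59-fold and 1.45-fold, and Cox7a2 at 1.38-fold. The member that was lower was Ndufa4l2, at 63.3 and 73.1 CPM against 176 and 128 CPM (0.441-fold, 95% interval 0.397 to 0.490).

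Over the whole callus the respiratory genes stood higher in Nf1Postn than in control, and the tissues in the section differed as well. The summed level was 10228 and 10415 CPM in the control callus of sections 1 and 2 and 15015 and 19154 CPM in the Nf1Postn callus, without overlap, a ratio of 1.71 (1.70 to 1.72). The muscle markers, all 16 detected in each callus, gave 2.26% and 3.61% of UMIs in control and 10.1% and 17.5% in Nf1Postn. Markers of other tissues differed between the calluses too, and the part of any of these lists in the difference was not tested. Cartilage markers gave 5.19% and 3.29% in control and 0.525% and 0.953% in Nf1Postn. Bone markers gave 4.14% and 4.25% in control and 2.65% and 1.86% in Nf1Postn. Osteoclast markers gave 0.765% and 0.640% in control and 0.363% and 0.162% in Nf1Postn. Erythroid markers gave 0.0161% and 0.0291% in control and 0.182% and 0.164% in Nf1Postn. The median over the members was 1.61-fold, and 0.937-fold over all genes. At 2-fold in both sections 6 of 80 members were higher and 0 lower, where 4.21% of all genes were higher and 1.58% lower. They were Cox7a1 (5.50-fold), Cox8b (5.17-fold) and Cox6a2 (4.92-fold), followed by Ndufb9 (2.49-fold), Atp5k (2.37-fold) and Ndufs1 (2.35-fold).

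Within the low-muscle and the muscle regions, each pooled, the summed ratios were nearer 1. In the low-muscle regions the summed level was 9605 and 9782 CPM in control and 9816 and 9579.8 CPM in Nf1Postn, a ratio of 1.00 (0.989 to 1.01). The calluses held these regions in different proportions. In the Ucma region 1 of 217 spots was Nf1Postn, and in the Hbb-bs and Bglap region 201 and 140 of 568 were (sections 1 and 2). The pooled ratio is therefore not one between like tissues. Among single low-muscle regions compared, the ratio ran from 0.834 (Col10a1 region) to 1.07 (Gpnmb region). In the pooled low-muscle regions 0 of 79 members were called, where 0.922% of all genes were called higher and 0.325% lower. In the muscle regions the summed level was 1.22-fold higher in Nf1Postn (1.20 to 1.25), 1.23-fold and 1.23-fold in the sections, and 0 of 63 members were called, where 0.519% of all genes were called higher and 0.484% lower. There the muscle marker share was 27.3% and 24.1% in control and 29.0% and 29.2% in Nf1Postn. The Ucp3 region was the higher of the muscle regions with all spots pooled. It had 2 control spots and 196 Nf1Postn spots, so region and genotype cannot be told apart there. Its 18 Nf1Postn spots of section 2 stood below the Myh7 region of the same callus and section (27880 CPM). In the Myh7 region alone the ratio was 1.05 in section 1 and 1.23 in section 2, where 18 control spots stood against 594. In section 1, 178 of the 230 Nf1Postn muscle spots fell in the Ucp3 region and 52 in the Myh7 region. The ratio of 1.05 therefore leaves out most Nf1Postn muscle spots of section 1.

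In the 11 regions with at least 20 spots of each genotype the ratio of the summed level, Nf1Postn over control, ran from 0.798 to 1.21, with a median of 0.951. TMM scaling turned the Gpnmb, Cfd and Hbb-bt regions. The ratio was above 1 in both sections in the regions led by Myh7, by Hbb-bs and Kcna7, by Cfd and by Tnnt2. It was below 1 in both in those led by Acp5, by Hbb-bs and Bglap, by Col10a1 and by Angptl7, and the sections disagreed in the remaining 3. Among those below 1, the Col10a1 region had 1 Nf1Postn spot in section 1 and the Acp5 region 9, so that their agreement between sections rests on few spots. In regenerating muscle the sections were close to each other, at 1.13 and 1.11, beside muscle marker shares of 10.5% and 14.2% in control and 14.8% and 16.7% in Nf1Postn. In the Angptl7 region they were 0.923 and 0.739.

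**Figure D5:**
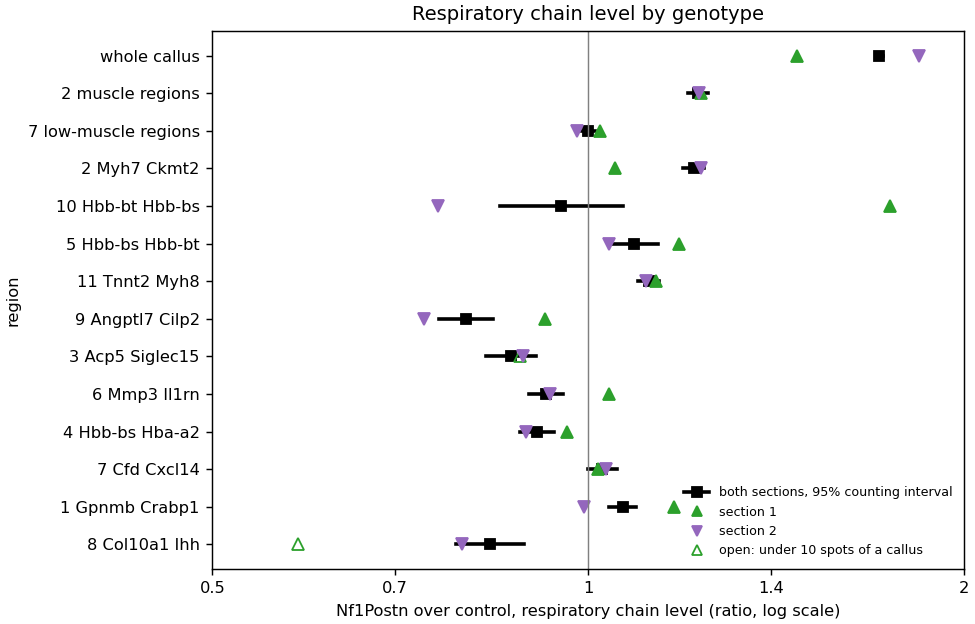
Ratio of the summed respiratory chain level, Nf1Postn over control (log scale), in the regions with at least 20 spots of each callus, in the 7 low-muscle regions together, in the 2 muscle regions together and over the whole callus. Triangles are the sections (open where a callus had under 10 spots) and squares with bars both sections with the 95% counting interval. The square of the whole callus lies to the right of the square of every region, and the square of the low-muscle regions together lies at 1. The section 1 triangle of the Hbb-bt region lies at 1.74, beyond the square of the whole callus.

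Of 512 pairs of member and region with enough UMIs, 1 was at least 2-fold higher in Nf1Postn in both sections and 9 were lower. Among all genes 0.398% of such pairs were higher and 1.55% lower. The lower ones were Ndufab1 and Ndufs4 of complex I in the Acp5 region, where Ndufs4 gave 13 UMIs in 27 Nf1Postn spots (0.383-fold, 0.203 to 0.658), and 7 members in the Col10a1 region. Among the latter were Cox7b (0.392-fold, 0.126 to 0.935) and Atp5j (0.434-fold, 0.222 to 0.768). The Col10a1 region had 1 Nf1Postn spot in section 1, at 0 UMIs of each of the 7 members, so that these calls turn on section 2. The higher pair was Ndufa13 in the Hbb-bt region, with 2 control UMIs, both in section 2 (3.57-fold, 0.968 to 29.8). By region, 2 of 72 members were called in the Acp5 region, 7 of 46 in the Col10a1 region and 1 of 15 in the Hbb-bt region. Of all genes compared in these regions, 3.82%, 6.57% and 9.20% were called, both directions counted. With regions restricted, after the data had been seen, to those with at least 10 spots of each callus in each section, 1 call was left, that of Ndufa13.

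Other genes of energy metabolism were read beside the members. Of 13 citric acid cycle genes, which feed the chain with electrons, 6 were called higher in muscle and 0 lower, with a median of 2.79-fold. By the same rule 3.43% of all genes compared were called higher and 13.8% lower, with a median of 0.628-fold. Citrate synthase Cs, the entry step, was 3.89-fold higher, and Ogdh and Mdh2 were 2.79-fold and 2.78-fold higher. Of 13 fatty acid oxidation genes 1 was called higher (Cpt1b, the muscle carnitine palmitoyltransferase, 7.05-fold), with a median of 2.04-fold. The most counted of them, Acadl, Etfb and Acadvl, stood at 2.19-fold, 1.89-fold and 2.26-fold.

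Among carriers and regulators, the muscle forms stood higher too. The ADP/ATP carrier of muscle, Slc25a4, was 4.18-fold higher in muscle, and its relative Slc25a5 stood at 0.244-fold. Of 10 carrier and import genes 1 was called higher, where 3.43% of all genes compared were, and the chaperonin Hspe1 stood at 0.579-fold. Of 10 regulators with enough UMIs, 2 were called higher, the coactivator Ppargc1a (6.39-fold, 95% interval 5.02 to 8.10) and Perm1 (10.7-fold, 95% interval 9.26 to 12.3). The receptor Esrra, the coactivator Ppargc1b and the factor Nrf1 stood at 2.25-fold, 1.83-fold and 0.542-fold. Of the uncoupling proteins, Ucp3 of muscle was 10.8-fold higher and Ucp2 stood at 0.406-fold, while Ucp1 had too few UMIs. In the Acp5 region Slc25a5 stood at 282 CPM, Ucp2 at 214 CPM and Ppargc1b at 83.7 CPM, against 186, 27.7 and 16.1 CPM in the Ucma region. The Ucma region was the lowest of all regions for Ucp2 and Ppargc1b. Slc25a5 and Ucp2 were highest in the Acp5 region, followed by 209 CPM in the Col10a1 region and 166 CPM in the Hbb-bs and Bglap region. Ppargc1b was higher in the Angptl7 region (103 CPM) and in the muscle regions (95.7 and 91.9 CPM) than in the Acp5 region. Mitochondrial DNA genes and mitochondrial ribosome genes are not analysed here.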

How the data were processed

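Serial sections of 1 block were profiled with Visium FFPE mouse probes. The submitters' processing notes name Space Ranger 1.3.0 and mm39, and the tables were exported from Partek Flow. The deposited values are raw estimated counts of UMIs per gene and spot, whole except where a symbol joins several gene IDs, whose mean the authors' tables hold, and they were used without rounding. A row without a gene name held 0.0000681% and 0.0000375% of UMIs and was left out, as were 5 spots to which the authors' annotation gave no genotype. Sections 1 and 2 held 13562300 and 12122400 UMIs in the control callus and 3462220 and 5984160 in the Nf1Postn callus.

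Log2(CPM + 1) values of genes in at least 0.3% of spots, centred within each section, were reduced to 20 principal components, and spots were grouped by Leiden clustering (15 neighbours, resolution 0.5; leidenalg 0.10.2, igraph 0.11.9, scikit-learn 1.9.0, scipy 1.17.1, numpy 2.4.6, Python 3.11.15). Members, mitochondrial lists and marker genes were left out of the clustering. UMIs were summed over spots, and ratios of CPM have exact conditional 95% intervals, shares exact Clopper-Pearson intervals and levels exact Poisson intervals. A gene was compared where each section gave it 50 UMIs or more, and called at 2-fold the same way in every section and callus compared. A fold of 1.5 was used for the Acp5, Ucma and regenerating regions, in the Acp5 and Ucma regions over the control callus alone, and was chosen after the data had been seen, in place of a lower fold at which more members had been called. Members and lists were chosen with earlier results of these data known. Named genes were the isoform pairs, the 3 members of each complex with most UMIs, the 5 highest and 5 lowest muscle ratios, the members called between genotypes (at most 5 each way in a region), the 4 assembly factors and the 3 genes of each other list with most UMIs. Atp5b, Cox7a2l, Ecsit, Cpt1b, Ppargc1a, Perm1 and the members named in the Acp5, Ucma and regenerating regions were added after their values were seen.

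TMM factors came from edgeR 4.0.16 (R 4.3.3), which was used for no test. Alternatives were each section left out, resolutions 0.3 and 1.0, all genes in the clustering, muscle spots by a marker share above 20%, mean log2 values, TMM, a denominator without muscle and globin markers, spots of at least 1000 UMIs, structural subunits alone, the median over members, a 1.5-fold call and lower count minimums. On simulated counts for muscle against other spots with 100 genes raised and 100 lowered 3-fold among 11936, 84 and 60 were called, beside 4 of 11736 unchanged genes. The simulated counts held counting error alone, with the same profile in every section and callus. They therefore do not give the rate of false calls in the data.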

Additional observations from a re-analysis of the deposited data

Results flagged for a closer look

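The ratio of the summed respiratory chain level, Nf1Postn over control, lay on different sides of 1 in different regions and had the same direction in both sections in those named here. It was 1.214 in the Myh7 region, 1.088 in the Hbb-bs and Kcna7 region, 1.026 in the Cfd region and 1.117 in the Tnnt2 region, above 1 in both sections. The interval of the Cfd ratio included 1 (0.999 to 1.05), and TMM scaling turned its direction. The Myh7 ratio set Nf1Postn spots mostly of section 2 (594, with 52 of section 1) against control spots mostly of section 1 (96, with 18 of section 2). The ratio was 0.9094 in the Hbb-bs and Bglap region and 0.7977 in the Angptl7 region, below 1 in both. The difference between regions was not tested, since there was 1 mouse per genotype. In the Angptl7 region the muscle marker share was 3.62% and 8.37% in the control callus of sections 1 and 2 and 3.96% and 8.03% in the Nf1Postn callus. In the same order it was 10.5%, 14.2%, 14.8% and 16.7% in the Tnnt2 region and 0.992%, 2.69%, 1.85% and 3.25% in the Cfd region. In the Hbb-bs and Bglap region it was 2.27%, 3.79%, 2.53% and 4.11%. In the Myh7 and the Hbb-bs and Kcna7 regions the sections differed in which callus had the higher share. The part of this share in the ratios was not tested.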

How the results depend on the processing

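No paired analysis was possible because there was 1 mouse per genotype and no result came from a test. The muscle ratio of the summed level (log2 1.34) was above 0 under every alternative run: 1.32 and 1.30 at resolutions 0.3 and 1.0, 1.24 from mean log2 values, 1.23 as the median over members, 1.95 with TMM, 1.78 without muscle and globin genes in the denominator, and 1.30 to 1.33 without either section. The Cox6a2 share in muscle was 96.0% by the marker rule. Without either section the Cox6a2 share was 96.3% to 96.4%, that of Cox7a1 82.9% to 85.3% and that of Cox8b 87.8% to 89.5%. Members called higher in muscle (20 as reported) numbered 44 at 1.5-fold, 24 and 16 at resolutions 0.3 and 1.0, 16 with all genes in the clustering, 19 by the marker rule and 25 to 35 without either section. Those called lower numbered 2 at 1.5-fold, 2 with a minimum of 20 UMIs, 2 with the 0.3% filter alone and 1 to 2 without either section. The whole-callus genotype ratio (log2 0.77) was 0.55 to 0.96 over its alternatives. The median genotype ratio within regions changed sign (log2 -0.073): it was 0.053 with all genes in the clustering, 0.046 from mean log2 values, 0.037 over regions with at least 10 spots of each callus in each section, a choice made after seeing the data, and -0.056 to 0.070 without either section. Single regions that changed sign were the Gpnmb region (log2 0.091, -0.048 with TMM, -0.011 to 0.23 without either section), the Mmp3 region (-0.10 to 0.055 without either section), the Hbb-bt region (0.80 without section 2, 1.09 from mean log2 values, 0.95 with TMM) and the Cfd region (-0.043 with TMM). Calls between genotypes over regions numbered 35 at 1.5-fold, 16 with a minimum of 20 UMIs, 65 with the 0.3% filter alone, 1 with at least 10 spots and 20 to 22 without either section. For these alternatives and those of the muscle calls, the share of all genes called was not computed. These counts therefore have no background to be read against. At 1.1-fold, also chosen after seeing the data, 40 members were higher in the Acp5 region and 7 lower (15.9% and 31.1% of all genes), 6 and 48 in the Ucma region (12.1% and 58.2%), 2 and 42 in regenerating over mature muscle (36.2% and 9.55%) and 50 and 2 over the low-muscle regions (9.07% and 19.7%). The cause of these changes was not tested. The shallow regions and the 18 control muscle spots of section 2 limit the genotype comparison within muscle.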
